A study of Mus musculus with 16 samples.

Results

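Interferon-stimulated genes are the genes that cells switch on after they sense an interferon. A list of 39 of them was followed here in mouse lungs after instillation of crystalline silica (CS). Members were found by symbol, and 34 of the 39 lay on probe sets that name 1 gene, out of 19938 genes measured that way. Isg15, Gbp2, Igtp and Ifi47 lay only on probe sets that name several genes, and Ifi44 was not matched, so these 5 are not analysed here. Where a gene had several probe sets, the one with the highest mean over the 16 arrays was used.

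The study concerned silica and lung tumors in KRasLA1 mice, with and without BLT1. BLT1 is the receptor for leukotriene B4, a lipid that attracts leukocytes, and is encoded by Ltb4r1. Lungs of BLT1+/+ and BLT1-/- mice were taken 2 days after instillation of CS or phosphate-buffered saline (PBS). Lungs of BLT1+/+KRasLA1 and BLT1-/-KRasLA1 mice were taken at day 60. The KRasLA1 allele is silent until a spontaneous recombination in scattered cells makes it oncogenic. The day 60 mice, PBS controls included, carried it and the day 2 mice did not. Day and KRasLA1 therefore cannot be told apart. The labels give a C57BL/6 background and an age of 10-12 weeks for the mice of all 8 groups. Each CS group held 3 lungs, and each PBS control was 1 pool of 3 mice, with no replicate.

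Interferons signal in a simple chain. Type I and type III interferons bind their receptors and activate the kinases JAK1 and TYK2, and a factor that holds STAT2 and IRF9 then binds the interferon-stimulated response element (ISRE). Interferon gamma signals through a receptor of its own, and its response runs through the gamma-activated site (GAS). In the lung this program is known best from viral infection, where it blocks viral replication. Its members include sensors of foreign nucleic acid, the transcription factors of the pathway itself, antiviral effectors, modifiers such as the ubiquitin-like ISG15 system, and the machinery that cuts and loads peptides for MHC class I.

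The promoters of the members hold the ISRE more often than promoters at large. RefSeq windows of 300 bases (250 before to 50 after each gene's start, GRCm38.p6) were given for 25 of the 34 measured members. The ISRE core, searched on both strands as GAAA, any 2 bases and GAAA again, was in the windows of 9 of these 25 (36.0%), against 3.99% of 27025 genes with a window. The 9 were Ifih1, Stat2, Ifit1, Ifit3, Oas3, Rsad2, Eif2ak2, Bst2 and Irgm1. The GAS core, searched as TTCNNNGAA on both strands, was in 7 of 25 (28.0%), against 9.55% of genes, and Eif2ak2 and Bst2 held both cores. A match says only that these letters are there, and no match says only that they are not in this window. Windows of 3 members picked for holding an ISRE core, and that of Tap1, which held none and also rose at day 60, are printed 5′ to 3′ on the gene's strand. Capitals mark the ISRE core, which reads TTTC, 2 bases and TTTC where it lies on the other strand.
Ifit1, chr19:34640639-34640938, plus strand: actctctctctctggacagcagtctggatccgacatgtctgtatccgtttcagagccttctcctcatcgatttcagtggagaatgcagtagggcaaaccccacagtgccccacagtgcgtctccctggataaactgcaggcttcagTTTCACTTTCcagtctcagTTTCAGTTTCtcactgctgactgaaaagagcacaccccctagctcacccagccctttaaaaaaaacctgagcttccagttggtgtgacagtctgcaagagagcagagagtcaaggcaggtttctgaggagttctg
Ifit3, chr19:34583279-34583578, plus strand: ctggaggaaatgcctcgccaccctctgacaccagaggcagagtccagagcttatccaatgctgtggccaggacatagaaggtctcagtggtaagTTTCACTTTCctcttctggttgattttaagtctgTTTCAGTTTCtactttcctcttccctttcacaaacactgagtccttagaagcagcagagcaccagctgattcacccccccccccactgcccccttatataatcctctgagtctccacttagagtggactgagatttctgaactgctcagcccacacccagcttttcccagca
Rsad2, chr12:26456403-26456702, minus strand: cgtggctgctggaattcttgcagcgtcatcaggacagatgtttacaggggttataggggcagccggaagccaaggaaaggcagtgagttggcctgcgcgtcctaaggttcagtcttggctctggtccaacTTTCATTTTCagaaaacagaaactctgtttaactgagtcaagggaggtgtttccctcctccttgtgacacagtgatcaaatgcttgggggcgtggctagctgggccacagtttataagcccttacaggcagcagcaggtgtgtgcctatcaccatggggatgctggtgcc
Tap1, chr17:34187306-34187605, plus strand: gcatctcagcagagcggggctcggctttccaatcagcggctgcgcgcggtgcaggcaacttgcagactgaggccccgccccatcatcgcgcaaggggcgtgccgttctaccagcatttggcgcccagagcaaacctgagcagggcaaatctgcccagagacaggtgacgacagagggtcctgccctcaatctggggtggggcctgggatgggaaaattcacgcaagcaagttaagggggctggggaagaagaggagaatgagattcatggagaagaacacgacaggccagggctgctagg
Ifit1 and Ifit3 each held 2 cores with the same letters, GAAAGTGAAA and GAAACTGAAA. They began 104 and 85 bases before the start in Ifit1, and 156 and 122 bases before it in Ifit3. Rsad2 held 1 core, GAAAATGAAA, beginning 120 bases before the start. The Tap1 window held no ISRE core, and it shares 275 bases with the window of Psmb9, which runs the other way (chr17:34187281-34187580, minus strand). None of the 3 antigen processing members (Tap1, Psmb8, Psmb9) had an ISRE core in its window, against 6 of the 11 antiviral effectors with a window. Among members with a window that were called at day 60 (below), Ifit1, Oas3, Rsad2 and Bst2 held an ISRE core. Irf7, Oasl2, Herc6, Dtx3l, Tap1, Psmb8, Psmb9 and Lgals3bp did not. Irf7, which rose most, held no GAS core either. Whether a core goes with the response was not tested. Members also sit side by side: of 32 members found in the RefSeq table, 14 had another member as their next protein-coding gene, in 8 pairs such as Rsad2 with Cmpk2, Ifit2 with Ifit3, Oas2 with Oas3, and Tap1 between Psmb9 and Psmb8. Such neighbours are measured by separate probe sets.

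Values are log2 expression levels on an array (RMA), so a difference of 1 is a 2-fold change. A level is compared only within a gene. Array medians lay between 8.25 and 8.34, and the type II pneumocyte gene Sftpc was at 14.25 to 14.47 on all 16 arrays. Ltb4r1 lay between 7.22 and 7.63 on all arrays. It is unknown here whether the probe set overlaps the knockout deletion, and these levels are no check of genotype. Sex-linked genes set 3 day 60 arrays apart: BLT1+/+KRasLA1 CS lung 2 (Eif2s3y 10.09, Xist 6.61) and both PBS pools (Eif2s3y 9.68 and 9.04, Xist 12.32 and 12.16), while the other 13 arrays had Eif2s3y at 4.27 to 4.74. By these genes sex, which is not labelled, was not balanced between CS lungs and pools at day 60, unlike day 2. The day 60 responses and the difference between days carry this imbalance, and its part in them was not tested. In whole lung, fewer cells of a type and less RNA per cell cannot be told apart.

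The 4 PBS pools set the level from which the responses were measured. Between the day 60 and day 2 pools the median member differed by -0.01, and the median over all genes was -0.0043. By limma, no member passed in that comparison at an adjusted p (Benjamini-Hochberg, over all genes) below 0.05, where 0.396% of all genes did, and none had an unadjusted p below 0.05. The differences ran from -0.56 in Rsad2 to 0.38 ± 0.22 in Ifit3 (standard error, as throughout, with an adjusted p of 0.596), and 16 of 34 were positive. Like Rsad2, Oas2 and Oas3 were lower in the day 60 pools. Oas2 was at 9.15 and 8.65 there, against 9.33 and 9.34 in the day 2 pools. Oas3 was at 7.75 and 7.99, against 8.07 and 8.52. With 2 pools a day, the median standard error of a member in this comparison was 0.225.

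**Figure D1:**
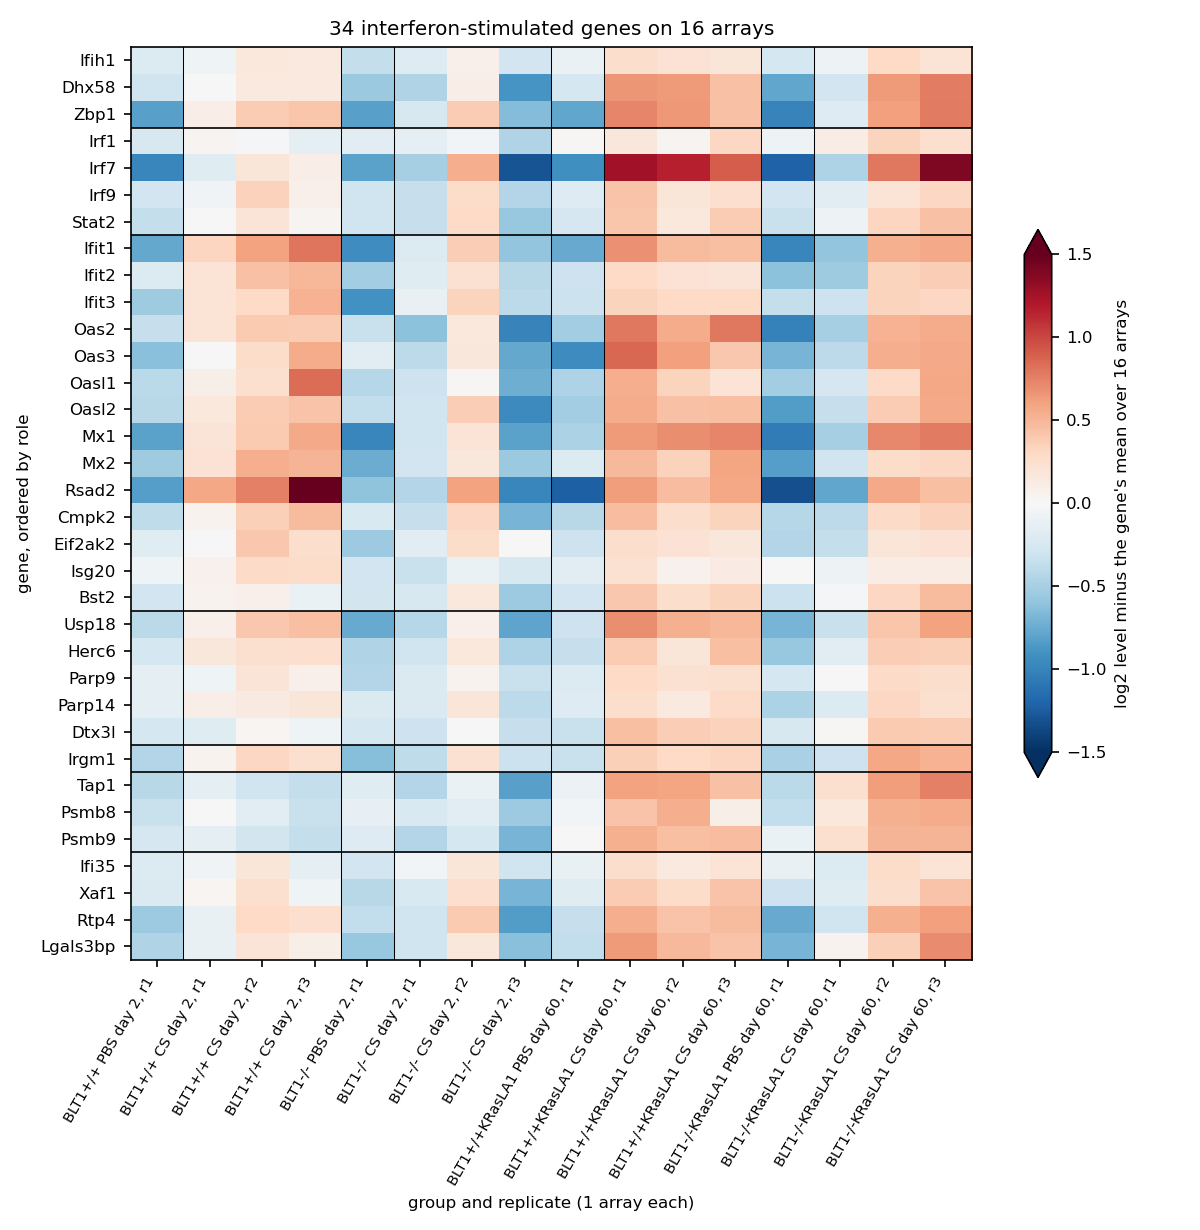
Log2 level of each of the 34 measured members (rows, grouped by role) on each of the 16 arrays (columns, grouped by genotype, treatment and day; r is the replicate), centred on the gene's mean over all arrays. The pools are low and the BLT1+/+KRasLA1 CS lungs high in most rows. BLT1-/-KRasLA1 CS day 60 lung 1 stands out as a low column within its group. Of the BLT1-/- CS day 2 lungs, 1 and 3 are low columns (median -0.30 and -0.58), and lung 2 is higher (0.18).

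At day 2 a small group of antiviral genes had risen. Averaged over both BLT1 genotypes, 5 of 34 members were higher after silica and 0 lower (adjusted p below 0.05, limma), where 8.03% of all genes were higher and 4.37% lower. The 5 were Ifit1, Zbp1, Ifit3, Mx2 and Eif2ak2, and 4 of them rose at least 1.5-fold, as 2.55% of all genes did. The median member was at 0.35, or 1.27-fold, against -0.02 for all genes, and 31 of 34 members had a positive difference, as 45.0% of genes did. At an unadjusted p below 0.05, 14 of 34 members (41.2%) were higher, against 14.2% of genes. In 6 members (17.6%) each of the 6 CS lungs lay above both pools, as in 12.1% of all genes. These were the called members other than Mx2, with Irgm1 and, by a near tie, Mx1. The share of members called was thus near that of all genes in this comparison, while the share with a positive difference was not.

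Ifit3, which with its relatives binds foreign RNA and blocks its translation, had the lowest adjusted p at day 2. Its level was 11.54 in the BLT1+/+ pool and 12.27, 12.37 and 12.59 in the BLT1+/+ CS lungs. It was 11.16 in the BLT1-/- pool and 11.96, 12.41 and 11.68 in the BLT1-/- CS lungs. Every CS lung was above both pools, and the mean rise was 0.87 ± 0.18 (1.82-fold, adjusted p = 0.0066). Ifit1, of the same family, went from 10.25 to 11.34, 11.62 and 11.82 in BLT1+/+ lungs and from 10.08 to 10.82, 11.39 and 10.43 in BLT1-/- lungs. It rose 2.09-fold (1.07 ± 0.28, adjusted p = 0.023), the largest rise among the 5. Lung 3 of the BLT1-/- group was nearest to the pools in both genes.

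Of the other 3, Zbp1, a sensor of Z-form nucleic acid that can trigger cell death, rose by 0.88 ± 0.25 (1.84-fold, adjusted p = 0.0337). Mx2, a gene of the dynamin-like GTPase family, rose by 0.74 ± 0.19 (adjusted p = 0.02). Whether its transcript gives a working protein in these mice was not measured. Eif2ak2, the kinase PKR that halts translation when it meets double-stranded RNA, rose by 0.49 ± 0.15 (adjusted p = 0.047). The next member was Mx1, whose C57BL/6 allele is known to carry a deletion in its coding exons, so that its transcript is read here but no intact protein is made from it. Its difference was 0.94 ± 0.29, and its adjusted p was 0.0532. All 6 lungs were above both pools only by a near tie, with BLT1-/- lung 3 at 6.8905 and the BLT1+/+ pool at 6.8904. Rsad2 (viperin, which makes a chain-terminating nucleotide) had as large a difference as Ifit1, at 1.06, with an error of 0.39 and an adjusted p of 0.0962.

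By role, the day 2 calls were 4 of 14 antiviral effectors and 1 of 3 sensors, and 0 of the other 17 members. The transcription factors Irf7, Irf9, Stat2 and Irf1 were at 0.70, 0.27, 0.26 and 0.08. The measured members of the ISG15 and ADP-ribosylation system ranged from 0.12 (Dtx3l) to 0.55 (Usp18, the protease that removes ISG15). Antigen processing was the one role with no positive difference: Tap1, which pumps peptides into the endoplasmic reticulum, was at -0.06, and the immunoproteasome subunits Psmb8 and Psmb9 were at -0.01 and -0.14. The count of 5 fell to 3 without BLT1+/+ lung 2 or lung 3, to 1 when adjusted over all probe sets, and to 0 when either pool was left out, where 1 pool serves both genotypes; it was 9 with array weights and 6 without BLT1-/- lung 3.

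At day 60, in KRasLA1 lungs, members of most roles had risen. Averaged over both BLT1 genotypes, 19 of 34 members rose and 0 fell, where 3.35% of all genes rose and 0.677% fell. Of the 19, 17 rose at least 1.5-fold, as 1.98% of all genes did. The median member was at 0.68 (1.60-fold) against -0.03 for all genes. All 34 differences were positive, where 40.3% of genes had a positive one. At an unadjusted p below 0.05, 33 members (97.1%) were higher, against 8.35% of genes. In 24 members (70.6%) each of the 6 CS lungs lay above both pools, as in 9.66% of all genes.

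Irf7, the transcription factor that amplifies type I interferon production, rose most. Its level was 9.37 in the BLT1+/+KRasLA1 pool and 11.55, 11.45 and 11.20 in the lungs. It was 9.07 in the BLT1-/-KRasLA1 pool and 9.82, 11.07 and 11.69 in the lungs. All 6 lungs were above both pools, with BLT1-/-KRasLA1 lung 1 nearest to them, and the rise was 3.75-fold (1.91 ± 0.43, adjusted p = 0.0228). Rsad2 went from 8.58 to 10.44, 10.27 and 10.38 in BLT1+/+KRasLA1 lungs and from 8.48 to 9.02, 10.38 and 10.26 in BLT1-/-KRasLA1 lungs. It rose 3.02-fold (1.59 ± 0.39, adjusted p = 0.0341), again with lung 1 of the BLT1-/-KRasLA1 group lowest.

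Zbp1 had the lowest adjusted p of the members at day 60. It went from 8.90 to 10.41, 10.34 and 10.12 in BLT1+/+KRasLA1 lungs and from 8.68 to 9.49, 10.29 and 10.46 in BLT1-/-KRasLA1 lungs. No lung overlapped a pool, and the rise was 2.64-fold (1.40 ± 0.25, adjusted p = 0.00564). Dhx58 (LGP2), another RNA sensor, rose by 1.00 ± 0.25, and Ifih1 (MDA5), which senses long double-stranded RNA, was at 0.37 with an adjusted p of 0.0902. So 2 of 3 sensors passed.

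Among the antiviral effectors 8 of 14 rose. The oligoadenylate synthetases Oas3 and Oas2, which make the messenger that activates RNase L, rose 2.38-fold and 2.34-fold (1.25 ± 0.26 and 1.22 ± 0.28). Their relative Oasl2 rose by 1.02 ± 0.27, just inside the threshold (adjusted p = 0.0496). Mx1 rose by 1.27 ± 0.29, Ifit1 by 1.22 ± 0.28, Mx2 by 0.80 ± 0.19 and Bst2 (tetherin, which holds budding virus at the cell surface) by 0.60 ± 0.15. Ifit3, the member with the lowest p at day 2, was at 0.55 ± 0.18 here and did not pass (adjusted p = 0.123). Isg20, an exonuclease, had the smallest difference of all members, at 0.18.

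No modifier had passed at day 2, and most did at day 60. Of 5 measured members of the ISG15 and ADP-ribosylation system, 4 rose: Usp18 by 0.91, the ISG15 ligase Herc6 by 0.72, and the partners Dtx3l and Parp9, an E3 ligase and an ADP-ribosyltransferase family member, by 0.61 ± 0.11 and 0.45 ± 0.11. Parp14 was at 0.51 with an adjusted p of 0.0637. Lgals3bp, a secreted galectin-binding glycoprotein, rose by 0.98 ± 0.18 (1.98-fold, adjusted p = 0.00638). Of the transcription factors only Irf7 passed, while Stat2, Irf9 and Irf1 were at 0.56, 0.44 and 0.23. Irgm1, a GTPase that acts on intracellular microbes, was the only member of its family measured alone and was at 0.71 (adjusted p = 0.0716).

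**Figure D2:**
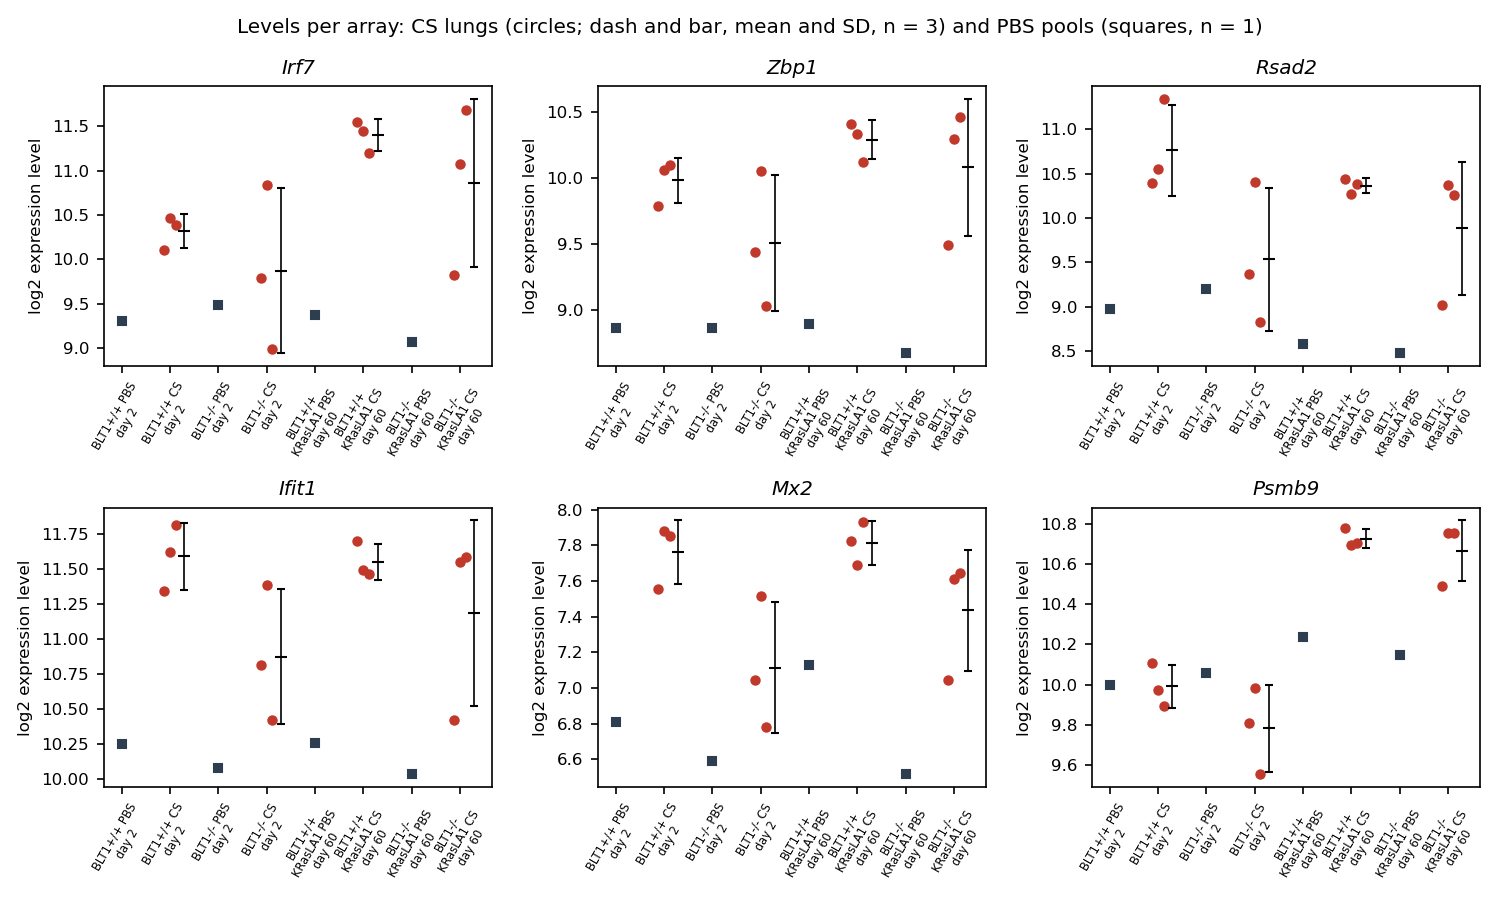
Log2 level of 6 leading members (Irf7, Zbp1, Rsad2, Ifit1, Mx2, Psmb9) in each CS lung (circles) and PBS pool (squares), by group, with the mean and SD of the 3 CS lungs as a dash and bar. At day 60 the BLT1+/+KRasLA1 lungs lie close together, and 1 BLT1-/-KRasLA1 lung lies below the other 2 (Irf7 at 9.82 against 11.07 and 11.69).

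Zbp1, Ifit1 and Mx2 were called at both days, and 13 members at neither. The day 60 count was 9, 11 and 10 without BLT1-/-KRasLA1 lung 2, BLT1-/-KRasLA1 lung 3 and BLT1+/+KRasLA1 lung 1, 6 when adjusted over all probe sets, 0 when either pool was left out, and 30 with array weights. Without the low BLT1-/-KRasLA1 lung 1 it was 27, all 19 among them, and without BLT1+/+KRasLA1 lung 2, the one with high Eif2s3y, it was 13.

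**Figure D3:**
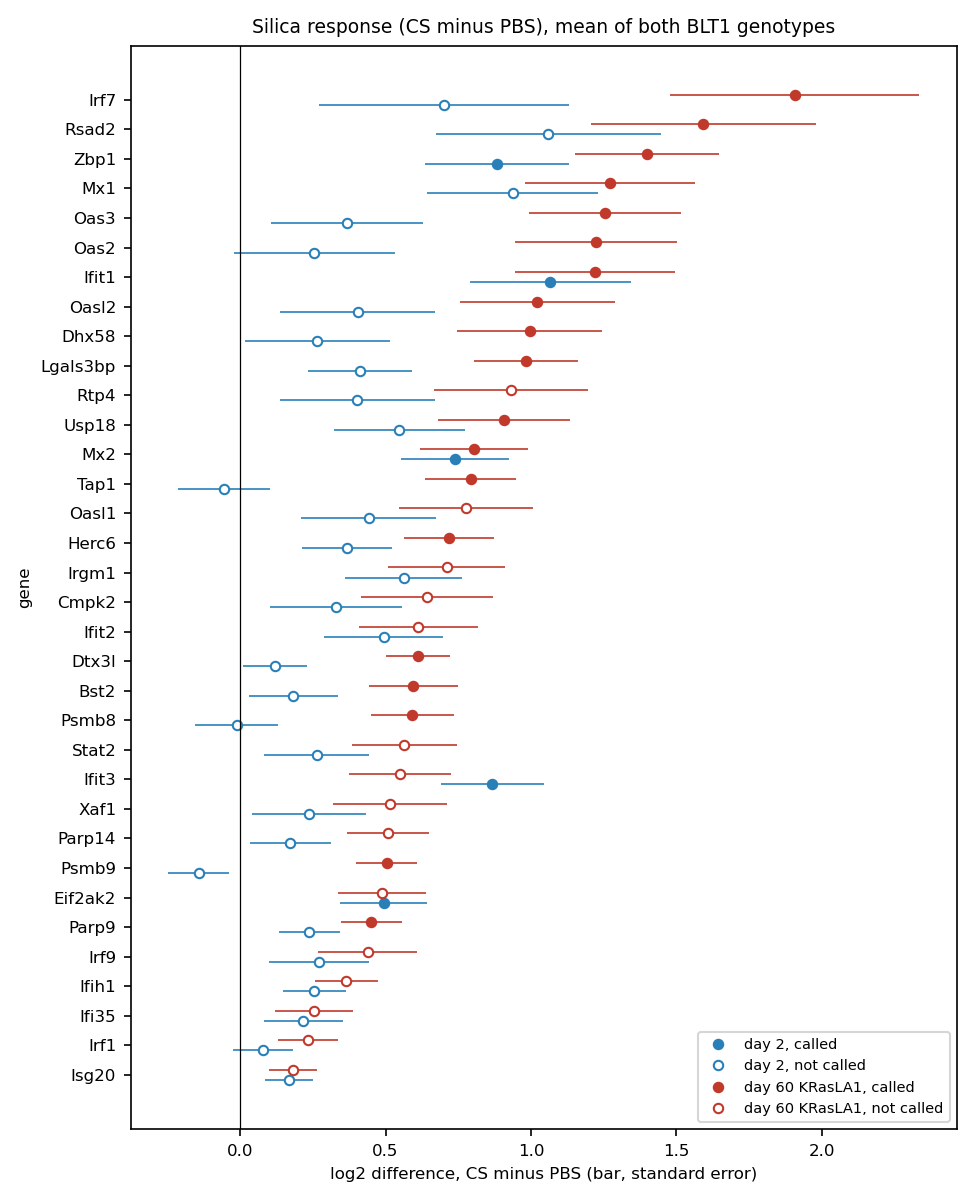
Silica response of each measured member, as the log2 difference between CS lungs and PBS pools averaged over both BLT1 genotypes, with its standard error, at day 2 and at day 60 in KRasLA1 lungs; filled points were called (adjusted p below 0.05). All 34 points lie above 0 at day 60, and Tap1, Psmb8 and Psmb9 lie below 0 at day 2.

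Each genotype against its own single pool gave no calls. These tests share 1 error per gene over all CS groups, and members spread more in the BLT1-/- groups (below). The counts were 0 of 34 in BLT1+/+ and in BLT1-/- lungs at day 2, where 1.16% and 6.60% of all genes were called. At an unadjusted p below 0.05, 12 and 2 members (35.3% and 5.88%) were higher, against 6.74% and 13.7% of genes. The counts were 0 in BLT1+/+KRasLA1 and in BLT1-/-KRasLA1 lungs at day 60, where 0.762% and 1.17% of genes were called. There 27 and 26 members (79.4% and 76.5%) were higher at an unadjusted p below 0.05, against 5.62% and 5.94% of genes. The median member was at 0.50 in BLT1+/+ and 0.16 in BLT1-/- lungs at day 2, and at 0.67 and 0.74 in the KRasLA1 groups of day 60. All 3 lungs lay above their pool in 32 of 34 members in BLT1+/+ and 10 in BLT1-/- lungs (29.1% and 30.7% of genes). At day 60 they did so in 34 members in BLT1+/+KRasLA1 and 32 in BLT1-/-KRasLA1 lungs (26.1% and 23.1% of genes). Without BLT1-/- lung 2 the BLT1-/- median at day 2 turned to -0.08. Without BLT1-/-KRasLA1 lung 1 the count in that group was 16, without BLT1+/+KRasLA1 lung 3 it was 2 in that one, and without BLT1-/- lung 3 the BLT1-/- count at day 2 was 1 (Ifit3, at 1.03). With the day 2 replicate block, Ifit3 was also called in BLT1-/- lungs (0.86, adjusted p = 0.0474).

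The antigen processing genes included the one member whose response was called as different between the days. The difference between the day 60 and day 2 responses passed in 1 of 34 members, Psmb9, where it passed upward in 1.70% of all genes. At an unadjusted p below 0.05, 7 members (20.6%) were higher, against 6.22% of genes. Of the 34 differences 32 were positive, as were 45.5% of those of all genes. Psmb9 was at 10.00 and 10.06 in the day 2 pools, at 10.11, 9.97 and 9.89 in BLT1+/+ lungs, and at 9.81, 9.99 and 9.55 in BLT1-/- lungs. At day 60 it was at 10.24 and 10.15 in the pools, at 10.78, 10.69 and 10.71 in BLT1+/+KRasLA1 lungs, and at 10.49, 10.76 and 10.75 in BLT1-/-KRasLA1 lungs. Silica lungs overlapped the pools at day 2 and lay above them at day 60, and the response differed by 0.65 ± 0.15 (adjusted p = 0.0392).

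Tap1 and Psmb8, its neighbours on chromosome 17, differed between the days by 0.85 ± 0.22 (adjusted p = 0.0706) and 0.60 ± 0.20 (adjusted p = 0.166). All 3 rose at day 60, Tap1 by 0.79 ± 0.16 (adjusted p = 0.0111), Psmb8 by 0.59 ± 0.14 and Psmb9 by 0.50 ± 0.11. Irf7 had the largest difference between the days, at 1.21 ± 0.61, and did not pass (adjusted p = 0.409). Ifit3 had the most negative one, at -0.32. The count of 1 was 0 without a variance trend, adjusted over all probe sets, with the day 60 replicate block, without any of the 4 pools, or without any of BLT1-/- lung 1, BLT1+/+ lungs 2 or 3, BLT1-/-KRasLA1 lungs 2 or 3, or BLT1+/+KRasLA1 lungs 1 or 2. It was 2 without BLT1-/- lung 2 or lung 3 or with the day 2 replicate block, 3 without BLT1-/-KRasLA1 lung 1, 4 with array weights, and 5 without the lowest lung of each BLT1-/- group (a choice made after seeing the data).

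Lungs of the BLT1-/- groups differed widely among themselves in these genes. The median SD of a member over the 3 CS lungs was 0.373 in BLT1-/- lungs at day 2 and 0.331 in BLT1-/-KRasLA1 lungs at day 60, where the median over all genes was 0.0893 and 0.102. In the BLT1+/+ groups it was 0.158 and 0.0897, against 0.118 and 0.091 for all genes. Of the 34 members, 25 and 20 were among the 5% most variable genes in the BLT1-/- groups of day 2 and day 60, and 2 and 0 in the BLT1+/+ groups. Irf7 had an SD of 0.926 and 0.949 in the BLT1-/- groups and of 0.188 and 0.18 in the BLT1+/+ groups. Whether the groups differ in their spread was not tested.

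The spread ran across most members of the same lungs. Against its own pool, the median member was at 0.38, 0.64 and 0.52 in the 3 BLT1+/+ lungs of day 2, and at 0.14, 0.60 and -0.16 in the BLT1-/- lungs. BLT1-/- lung 3 had 11 of 34 members above the pool, lung 1 had 23 and lung 2 had 32. At day 60 the median member was at 0.70, 0.63 and 0.66 in the BLT1+/+KRasLA1 lungs, and at 0.29, 0.91 and 0.95 in the BLT1-/-KRasLA1 lungs. BLT1-/-KRasLA1 lung 1 had 32 of 34 members above the pool, but 4 by at least 1.5-fold, against 27 and 29 in the other 2 lungs of its group.

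The median of other silica-raised genes was highest in the day 2 lung with the lowest members. Within its group, it was lowest in the day 60 lung with the lowest members. Those genes were chosen for their rise in these same lungs and the members were not, so their medians are not compared on equal terms. The 504 genes other than members that rose at least 1.5-fold at day 2 had a median of 1.23 in BLT1-/- lung 3, the highest of the 6 lungs, where members were lowest. The 377 such genes of day 60 had a median of 0.75 in BLT1-/-KRasLA1 lung 1, the lowest of its group, where lungs 2 and 3 were at 0.94 and 1.05. Saa3, an acute phase gene, was lowest in the same lung of each group: it was 4.23 above the pool in BLT1-/- lung 3 against 4.67 and 4.78 in lungs 1 and 2, and 4.67 above it in BLT1-/-KRasLA1 lung 1 against 5.52 and 5.47 in lungs 2 and 3. Cxcl10, an interferon-induced chemokine outside the list, was lowest in them too, at 1.70 and 0.77 above the pool, where the other BLT1-/- lungs were at 2.67 and 3.17, and at 2.83 and 2.55.

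**Figure D4:**
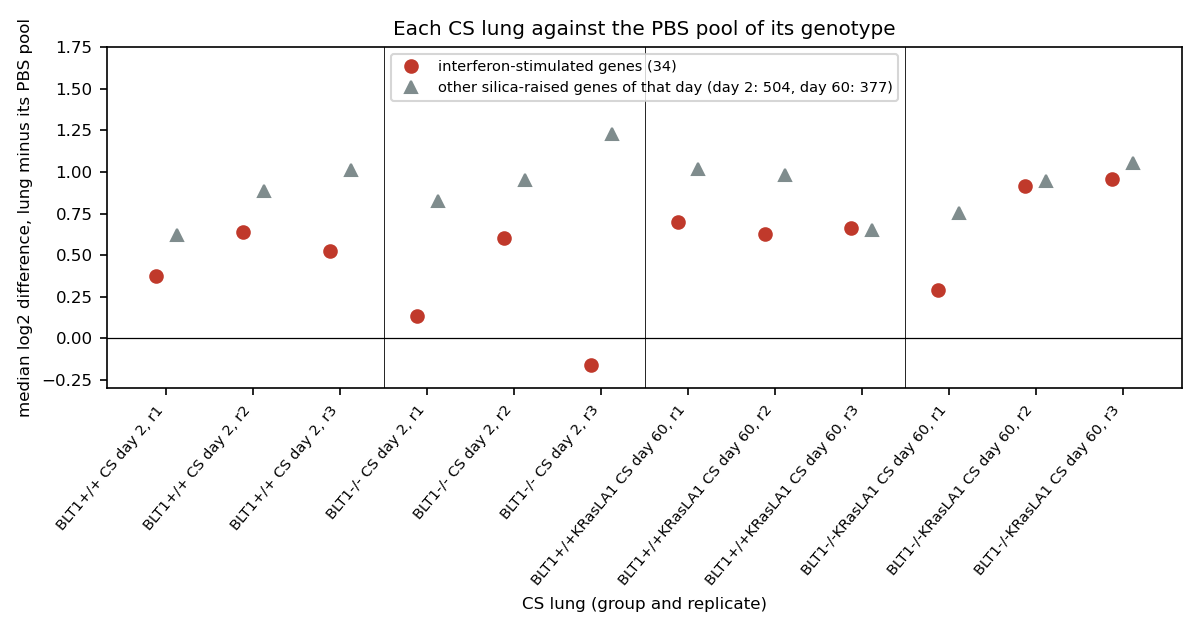
Median log2 difference of each CS lung (r is the replicate) from the PBS pool of its genotype and day, for the 34 members (circles) and for the other genes raised at least 1.5-fold by silica at that day (triangles). The genes of the triangles were chosen on these same lungs. BLT1-/- CS day 2 lung 3 is at -0.16 for members and 1.23 for the other genes.

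Between BLT1-/- and BLT1+/+ lungs after silica at day 2, every member had a negative difference, and none passed the threshold. All 34 were below 0, where 47.8% of genes had a negative one, and the median was -0.40 against 0.01 for all genes. By limma 0 of 34 were called, where 0.0201% of all genes were. At an unadjusted p below 0.05, 15 members (44.1%) were lower and none higher, against 3.99% of genes lower at that level. Isg20 had the smallest p: it was at 11.76, 11.98 and 11.97 in BLT1+/+ lungs and at 11.36, 11.60 and 11.46 in BLT1-/- lungs. The groups did not overlap, and the difference was -0.43 ± 0.08 (adjusted p = 0.141). With the replicate number as a block, which pairs the day 2 lungs, Isg20 was called (adjusted p = 0.0478).

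Mx2 was next, at 7.55, 7.88 and 7.85 in BLT1+/+ lungs and 7.05, 7.51 and 6.78 in BLT1-/- lungs, a difference of -0.65 ± 0.19 (adjusted p = 0.294). Rsad2 had the largest difference, at -1.23 ± 0.39 (adjusted p = 0.348), with 10.39, 10.56 and 11.34 in BLT1+/+ lungs and 9.37, 10.41 and 8.83 in BLT1-/- lungs. In 5 members (Oas2, Oasl1, Mx2, Isg20, Herc6), or 14.7%, each BLT1-/- lung was below each BLT1+/+ lung, against 6.13% of all genes. Without BLT1-/- lung 3 the median was -0.20, and 0 members were called.

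At day 60 the median difference between BLT1 genotypes was nearer 0, and whether it differed from day 2 was not tested. It was -0.17 against 0.01 for all genes, 32 of 34 differences were negative (46.4% of genes), 0 were called where 0.0401% of genes were, and 0 had an unadjusted p below 0.05, where 2.16% of genes were lower at that level. Irf7 was at -0.54 ± 0.43 and Oas2 at -0.52 ± 0.28. Mx2, at -0.38 ± 0.19 (adjusted p = 0.967), was the one member whose lungs did not overlap between genotypes, against 5.92% of all genes. Without BLT1-/-KRasLA1 lung 1 the median turned to 0.02.

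The BLT1 by silica interaction, which sets each genotype's response against the other's, was called in 0 of 34 members at day 2 and 0 at day 60, as in 0.00% of all genes at either day, and 0 members had an unadjusted p below 0.05, where 896 and 396 genes did. Its median was -0.27 at day 2 and 0.01 at day 60, where the median standard error of a member was 0.367, so that only large differences between genotypes could have passed.

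**Figure D5:**
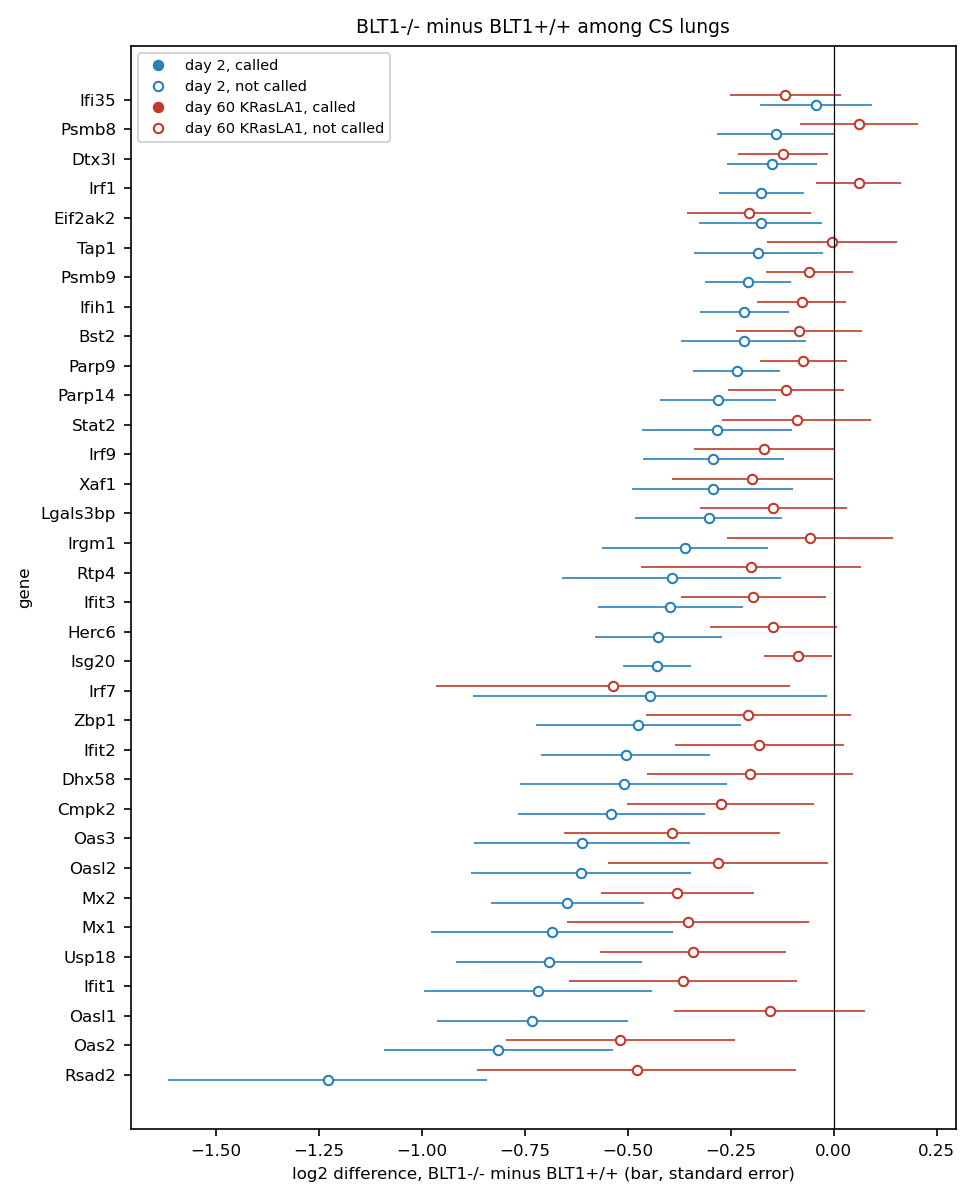
Log2 difference between BLT1-/- and BLT1+/+ CS lungs for each measured member, with its standard error, at day 2 and at day 60 in KRasLA1 lungs; open points were not called. All 34 points lie below 0 at day 2, from -1.23 (Rsad2) to -0.04 (Ifi35), and no point is called at either day.

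Upstream of these genes, transcripts of the interferons themselves were not seen to change. Of 20 type I and III interferon genes listed, 15 were measured and 0 passed at either day, where 12.4% of all genes passed at day 2 and 4.02% at day 60. Ifnb1, the interferon made first in many cell types, was at -0.02 ± 0.14 at day 2 and -0.03 ± 0.14 at day 60. Ifng was at -0.01 ± 0.09 and 0.12 ± 0.09. These genes are dim on the array, with Ifnb1 at the 11.7th percentile of genes, and RMA values understate changes of dim genes.

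Over all genes, 8.03% rose and 4.37% fell at day 2, and 3.35% rose and 0.677% fell at day 60. Of 7 genes of interferon gamma and its inducers, 0 passed at day 2 and Il18 fell by 0.48 at day 60 (adjusted p = 0.0405). Of 6 receptor genes, 0 passed at day 2 and Ifngr2, a chain of the interferon gamma receptor, rose at day 60 (0.31 ± 0.05, adjusted p = 0.00369). Of 9 measured JAK-STAT genes 4 rose at day 2: Socs3, a feedback inhibitor of STAT3 signals (1.10 ± 0.14), the phosphatase Ptpn2 (0.69), Jak2 (0.22) and Stat3 (0.22). At day 60 3 rose, Socs3 by 0.65, Ptpn6 by 0.40 and Jak2 by 0.25.

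Nucleic acid sensing genes were called more at day 60, where 3.35% of all genes rose, than at day 2, where 8.03% did. Of 18 measured, 2 rose at day 2, Sting1, the adaptor for cytosolic DNA (0.80 ± 0.12), and the kinase Tbk1 (0.23). At day 60 8 rose, among them the endosomal RNA receptor Tlr7 (0.91 ± 0.10), Sting1 (0.80), Irf5 (0.77) and the DNA sensor Aim2 (0.66). The response differed between days in 5 of the 18, as in 2.35% of all genes, Tlr7 among them (1.05 ± 0.14, adjusted p = 0.00183). Of 54 other interferon-induced genes 46 were measured. At day 2 3 of these rose and 1 fell, with Cxcl10 at 3.01 ± 0.45, the DNA-binding Ifi205 at 1.52 and the guanylate-binding protein Gbp8 at -0.49. At day 60 14 rose and 0 fell, among them the chemokine Cxcl9 (2.12 ± 0.33), Slfn1 (1.43), Oas1a (0.94) and Cd274, which encodes PD-L1 (0.91). Their medians were 0.03 and 0.34, against 0.35 and 0.68 for the members. In both lists the count that rose at day 2 was near the share of all genes that rose.

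Cell markers moved with silica too, in ways that differed by day. Over all genes, 8.03% rose and 4.37% fell at day 2, and 3.35% rose and 0.677% fell at day 60. At day 2, 9 of 9 B cell, 9 of 12 NK and cytotoxic and 8 of 12 T cell markers fell, 14 of 14 cell cycle genes rose, and monocyte and macrophage markers rose in 3 of 10 (Cd68 by 0.63) and fell in 1. At day 60, 9 of 10 monocyte and macrophage markers rose (Cd68 by 1.04) with 7 of 12 T cell markers, 3 of 9 neutrophil markers and 1 each of the B cell and NK lists. Of the resident lists, 2 of 9 for alveolar macrophages were higher and 1 lower at day 2 (Marco rose by 0.95), and 3 were higher at day 60 (Itgax by 1.05), type II pneumocyte markers rose in 1 and fell in 2 of 10 at day 2 and rose in 1 at day 60, and endothelial markers fell in 1 of 10 at day 2 (Vwf by 0.41) and moved in 0 at day 60. No neutrophil marker passed at day 2, and 2 of 14 cell cycle genes rose at day 60. The neutrophil calls were made against unlike pools. The summed level of the 9 neutrophil markers (log2) was 13.88 and 14.52 in the day 2 pools, and 12.01 and 11.54 in the day 60 pools. It was 13.76 to 14.71 in the CS lungs of day 2 and 12.30 to 13.48 in those of day 60. Plasmacytoid dendritic cell markers, from a cell type known for making type I interferon, fell in 2 of 8 at day 2 (Spib by 1.03, Siglech by 0.56) and rose in 2 of 8 at day 60 (Spib by 0.96, Ccr9 by 0.82).

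The summed level of the 10 monocyte and macrophage markers (log2) was 13.51 and 13.49 in the day 2 pools, 13.82 to 13.97 in BLT1+/+ lungs and 13.53 to 13.65 in BLT1-/- lungs. It was 13.50 and 13.32 in the day 60 pools, 13.94 to 14.45 in BLT1+/+KRasLA1 lungs and 14.04 to 14.36 in BLT1-/-KRasLA1 lungs, with lung 1 the lowest. The lungs with the lowest members in the BLT1-/- groups, lung 3 at day 2 and lung 1 at day 60, were also lowest of their groups in the sums of several marker lists. For macrophages these were 13.53 against 13.63 and 13.65 at day 2, and 14.04 against 14.20 and 14.36 at day 60. For neutrophils they were 13.76 against 13.93 and 14.43, and 12.47 against 13.37 and 12.84. The NK, B cell and plasmacytoid dendritic cell sums were lowest in both lungs as well. T cell, alveolar macrophage and endothelial sums were lowest in the day 2 lung but not in the day 60 lung, where the last pair were highest. The cell cycle sum was highest in the day 2 lung, at 14.61 against 13.58 and 13.81. The part of cell composition in the members' values was not tested.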

How the data were processed

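Whole lung RNA of 16 samples was read on Affymetrix arrays. The deposited values are log2 levels per probe set. The submitters' processing notes name RMA and Partek 6.6 for them, with no annotation version. RMA scales the arrays alike, so a change in total RNA is not seen, and the number of arrays limits the precision.

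Members and lists were chosen with earlier results of these data known. Any member may be named; up to 8 called members with the largest change lead each comparison, or the 3 with the smallest p where none was called, and other lists give up to 4 (pathways) or 2 (cell types). Of 35556 probe sets 21789 name 1 gene, 1621 several and 12146 none. limma 3.58.1 (R 4.3.3; 1 mean per group over all arrays, moderated variances with a trend, 8 residual degrees of freedom, two-sided, Benjamini-Hochberg over 19938 genes, threshold 0.05) gave every p-value, and was tested on simulated data. A PBS pool, with no replicate, is assumed to vary like a CS lung. The p-values set each difference against the spread among CS lungs within their groups, shared as 1 estimate per gene over all CS groups. That spread may be partly technical. At day 2, same-numbered lungs of the genotypes deviated together (r = 0.426, 0.200 and 0.345 over genes), so a replicate block was also fitted; at day 60 they did not meet that standard. Promoters and gene neighbours are RefSeq's, and motifs were matched by letters. Alternatives were other scalings, variance models, probe set rules and pools, each sample left out, and blocks.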

Additional observations from a re-analysis of the deposited data

Results flagged for a closer look

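The silica response of Psmb9, an immunoproteasome subunit, differed between the days when that difference itself was tested. It was 0.65 ± 0.15 higher on the log2 scale at day 60 in KRasLA1 lungs than at day 2 (limma, adjusted p = 0.0392). Day and KRasLA1 cannot be told apart in it. Over the alternatives the difference lay between 0.51 and 0.78 and the adjusted p between 0.00795 and 0.468. Groups of 3 lungs were not searched by a set rule for single outlying samples. The lowest lung of each BLT1-/- group was picked out after seeing the data.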

How the results depend on the processing

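No called member turned its direction under any alternative run for it, but 4 medians over the members changed sign. That of the BLT1 difference at day 60 went from -0.17 to 0.02 without BLT1-/-KRasLA1 lung 1, and that of the BLT1-/- response at day 2 from 0.16 to -0.08 without BLT1-/- lung 2. That of the pools went from -0.01 to 0.03 in the BLT1+/+ pools alone, and that of the day 60 interaction, 0.01, lay at or below -0.02 in 5 settings (lowest -0.14, without BLT1-/-KRasLA1 lung 3). The day 2 mean response had 5 members called, 9 with array weights, 1 adjusted over all probe sets, 3 to 6 with 1 lung left out, and 0 without either pool. The day 60 mean response had 19, 30 with array weights, 6 over all probe sets, 9 to 27 with 1 lung left out, and 0 without either pool. In single genotypes, each with 0 called, array weights gave 2 (BLT1-/- at day 2), 8 (BLT1+/+KRasLA1) and 22 (BLT1-/-KRasLA1), and leaving out 1 lung gave 0 to 1, 0 to 2 and 0 to 16. The other genotype's pool gave 3 in BLT1+/+ lungs at day 2 and 4 in BLT1+/+KRasLA1 lungs, where quantile normalization and median centring gave 1 each.

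The replicate block of day 2 gave 1 call in BLT1-/- lungs and 1 (Isg20) between genotypes, and left the mean response at 5; that of day 60 left it at 17. For the difference between days, with 1 called, the blocks gave 2 (day 2) and 0 (day 60), no variance trend 0, and array weights 4. All probe sets gave 0, 1 lung left out 0 to 3, and 1 pool left out 0. Leaving out the lowest lung of each BLT1-/- group, a choice made after seeing the data, gave 5. The interactions, the BLT1 difference at day 60 and the pools gave 0 in every setting run. The causes were not tested. The array weight of BLT1-/- lung 3 was 0.586 and that of BLT1-/-KRasLA1 lung 1 was 0.318. The median standard error of a member was 0.184 for mean responses, against 0.0983 over all genes.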
